A study of Rattus norvegicus with 12 samples.

Results

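The noncoding transcripts catalogued at zinc finger genes were followed in RNA from the lumbosacral spinal cord of Wistar rat fetuses at embryonic day 17. In one group the fetuses had anorectal malformations (ARM) induced with ethylenethiourea (ETU), and in the other they were normal. Each group had 3 long noncoding RNA (lncRNA) libraries, and replicate numbers are those of the sample titles. No group exposed to ETU without ARM is named in the labels, so the exposure and the malformation cannot be told apart. The labels do not say that the samples came from separate fetuses or litters, and p-values then reflect no more than the spread among these samples, which may be technical. Members were the rows of the lncRNA table whose name begins with Zfp or Znf and a digit, where a row is 1 transcript. The rule found 116 of 22701 rows, at 80 gene names on 19 chromosomes. A letter after the gene name tells the transcripts of a gene apart.

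Zinc finger proteins grip DNA, RNA or other proteins with small folds held together by zinc. Many of the genes named Zfp in rodents and ZNF in humans encode C2H2 factors, and a large class of those carries a KRAB domain. KRAB proteins bind chosen DNA sequences and recruit Trim28, which brings the histone methyltransferase Setdb1 and heterochromatin proteins, so that transposable elements and imprinted genes are kept silent. Other genes with the same naming act in spindle assembly, in SUMO ligation, in RNA binding or in neuronal differentiation. A noncoding row is named after the gene at which it was catalogued, and its level says nothing of the gene's mRNA. No source used here says whether the counting used strand, and reads from a row and from a gene that overlaps it cannot be told apart.

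The named genes could be checked against the rat annotation. Of the 80 gene names 76 matched a gene of the GRCr8 annotation, 67 by symbol, 4 after exchanging Zfp and Znf, and 5 by an older name. All 76 lay on the same chromosome number in GRCr8 as in the table. The 5 older names were Zfp187 (now Zscan26), Zfp278 (Patz1), Zfp294 (Ltn1, a ubiquitin ligase of ribosome quality control), Zfp364 (Rnf115, also a ubiquitin ligase) and Znf307 (Zkscan4). So the name alone does not make a row's gene a DNA-binding factor. No member belonged to the CCCH family of RNA decay factors around Zfp36.

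For 65 of the genes RefSeq gave a promoter sequence of GRCr8, and the 250 bases before the gene's start were read. The first pair of sequences belongs to the genes with the most abundant rows, Zfp207 (chr10:65883380-65883629, plus strand) and Zfp445 (chr8:131350750-131350999, minus strand). The other pair belongs to the genes with the smallest p in each direction, Zfp184 (chr17:47299478-47299727, minus strand) and Zfp821 (chr19:54589947-54590196, plus strand). Each is printed 5′ to 3′ with CpG dinucleotides in capitals.
Zfp207: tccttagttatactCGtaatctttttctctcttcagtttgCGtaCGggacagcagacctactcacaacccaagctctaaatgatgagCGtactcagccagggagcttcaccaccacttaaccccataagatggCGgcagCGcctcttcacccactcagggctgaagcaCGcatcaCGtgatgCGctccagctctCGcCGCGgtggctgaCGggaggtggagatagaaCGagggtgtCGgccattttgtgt
Zfp445: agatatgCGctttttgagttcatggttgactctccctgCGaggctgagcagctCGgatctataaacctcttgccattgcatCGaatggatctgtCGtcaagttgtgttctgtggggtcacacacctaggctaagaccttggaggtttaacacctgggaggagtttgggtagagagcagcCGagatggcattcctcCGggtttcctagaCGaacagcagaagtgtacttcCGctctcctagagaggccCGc
Zfp184: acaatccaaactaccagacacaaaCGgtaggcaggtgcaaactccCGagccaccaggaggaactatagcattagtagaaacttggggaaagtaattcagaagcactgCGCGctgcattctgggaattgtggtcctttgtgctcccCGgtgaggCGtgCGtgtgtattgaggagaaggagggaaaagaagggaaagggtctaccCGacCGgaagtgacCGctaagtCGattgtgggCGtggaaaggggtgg
Zfp821: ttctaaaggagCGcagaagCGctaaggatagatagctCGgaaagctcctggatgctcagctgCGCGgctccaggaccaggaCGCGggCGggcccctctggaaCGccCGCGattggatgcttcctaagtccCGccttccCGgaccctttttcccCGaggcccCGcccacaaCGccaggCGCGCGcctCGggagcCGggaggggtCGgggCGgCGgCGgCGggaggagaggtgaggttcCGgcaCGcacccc
These promoters held 15, 10, 12 and 28 CpGs in the order printed. The median of the 65 genes was 13 CpGs, with a range of 1 to 28, against 9 over 19005 protein-coding genes of the annotation. Their G and C content differed less, with a median of 55.6% against 54.8% for coding genes. The letters CCGGAAG, a core that ETS factors recognise, stood on either strand of 13 of the 65 promoters (20%), Zfp184 among them, and of 9.52% of coding promoters. CACGTG stood in 5 (7.69%), Zfp207 among them, against 6.38% of coding promoters, and TATAAA in 5 (7.69%) against 12.3%. These counts carry no test. A match is a string of letters in this window and says nothing of binding, and these promoters are those of the coding genes, not of the noncoding rows.

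No zinc finger row passed the test between ARM and normal cord. Of the 116 rows 87 (75%) had enough reads to be tested, against 59.8% of all rows in the table. At an adjusted p under 0.05 in edgeR's quasi-likelihood test 0 of the 87 were called lower and 0 higher in ARM cord. Over the whole table the calls among 13584 tested rows were 6 lower (0.0442%) and 1 higher (0.00736%), which is 0.0515% in either direction, so a share of 0 among 87 rows is near the background. The smallest adjusted p of a member was 0.9997 in edgeR. At an unadjusted p under 0.05 edgeR had 2 members (2.30%), against 3.0% of all tested rows. DESeq2 had 0 members both adjusted and unadjusted, against 1.62% of all tested rows unadjusted. In bulk cord, fewer cells of a type and less RNA per cell cannot be told apart.

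The estimates lay close to 0 on the log2 scale, where a positive value is higher in ARM cord. Of the 87 tested members 41 leaned higher and 46 lower in ARM cord, and the share of 47.1% leaning higher stood beside 50.7% of all tested rows. Their median was -0.01, against 0.0036 over all tested rows, and they ran from -0.67 to 0.54. None of the 87 estimates exceeded a 2-fold change, as 2.71% of all tested rows did, and 65 (74.7%) lay within 0.25 of 0, against 69.7% of all. The intervals say how far that goes. The 95% interval of the log2 fold change lay within a 2-fold change either way for 68 of the 87 (78.2%), and for 50 of the 55 rows with a mean of at least 10 CPM, counts relative to the library's reads on tested rows. From the estimate to either end, the median interval reached 0.525 on the log2 scale. These intervals are not adjusted for the number of rows, and the adjusted test needs larger changes. So the absence of calls does not show that a row was the same in both groups.

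**Figure D1:**
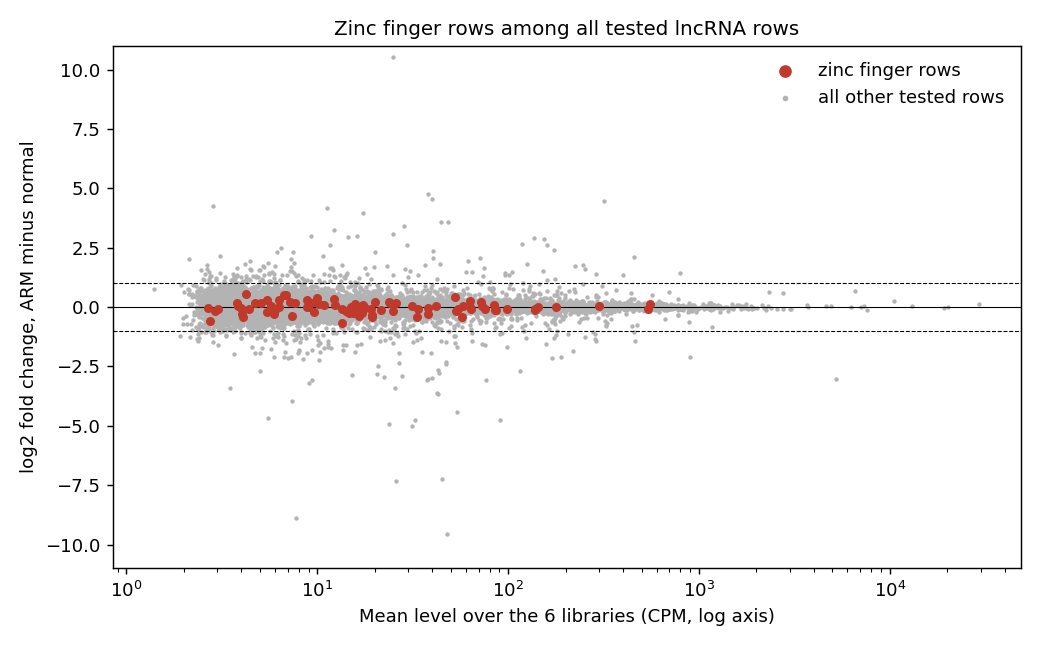
Log2 fold change (ARM minus normal) against mean level (CPM, log axis) for the 87 tested zinc finger rows. The others of the 13584 tested rows of the table are in grey. The zinc finger rows lie between -0.67 and 0.54 and spread around 0 at every level.

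The summed level of the 116 rows overlapped between the groups. It came to 4004, 3933 and 3835 CPM in the ARM libraries and to 3951, 3931 and 3980 CPM in the normal libraries. ARM replicates held both the highest and the lowest value, with the normal libraries between them. The means were 3924 ± 84.9 CPM in ARM cord and 3954 ± 24.4 CPM in normal cord (SD, n = 3 each), a difference of -29.9 CPM. The rows took 0.371% to 0.398% of all counts in ARM libraries and 0.387% to 0.395% in normal libraries.

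A few rows carried most of that sum. The 12 rows with the highest level held 61.4% of it, and the top pair, at Zfp207 and Zfp445, held 27.7%. Per length, the median member had 2.47 FPKM (read counts relative to transcript length and library size, as deposited) against 1.20 FPKM over all rows. In ARM replicate 3 the deposited scale ran high, with a median over all rows of 1.29 FPKM against 1.05 to 1.16 FPKM in the remaining libraries. The 29 rows too low to test had 6 to 63 counts summed over the 6 libraries and at most 24 in any library, and 110 of the 116 rows had a count in every library. Members were 219 to 3245 bases long, with a median of 639.5, against 670 over all rows. The table calls 29 members unspliced (25%), against 41.7% of all rows. For 28 of these the coordinates span exactly the stated length, while Zfp347.a spans 7:9974310-10195137 with a stated length of 2195.

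The most abundant zinc finger row came from Zfp207, whose protein (BuGZ) loads the checkpoint protein Bub3 at kinetochores and helps to assemble the spindle. Zfp207.b, on chromosome 10 from 67765275 to 67774327, had 563, 542 and 620 CPM in ARM libraries and 520, 521 and 539 CPM in normal libraries. Every ARM library was higher than every normal library, by a narrow margin. The fold was 1.09, the log2 fold change 0.13 (95% interval -0.08 to 0.34), and the row did not pass the edgeR test (adjusted p = 0.9997). Its groups were among those of 9 tested members that did not overlap (10.3%), against 7.78% of all tested rows. The 6 lying higher in ARM cord were Zfp207.b, Zfp821.b, Zfp362.c, Zfp692.g, Zfp346.c and Zfp655.e, and 3.87% of all tested rows did so. The 3 lying lower were Zfp426.c, Zfp184.c and Zfp653.c, and 3.91% of all tested rows did so. The other rows of the gene overlap it in position. Zfp207.d averaged 133 ± 7.27 CPM in ARM and 143 ± 11.8 CPM in normal cord (SD, n = 3 each), and Zfp207.c 63.3 ± 11.9 CPM in ARM and 62.7 ± 19.4 CPM in normal cord. Per length Zfp207.b stood first among the members at 70.0 ± 10.8 FPKM in ARM and 64.1 ± 0.637 FPKM in normal cord.

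Zfp445 encodes a KRAB protein that, together with Zfp57, protects imprinted loci in mouse and human. Its single row, Zfp445.a, is unspliced and had 558, 536 and 471 CPM in ARM libraries and 579, 538 and 549 CPM in normal libraries. ARM replicate 3 was the lowest, and the groups overlapped. The log2 fold change was -0.09 (95% interval -0.32 to 0.14), so a change of 2-fold lay outside the interval. Per length the row reached 24.5 ± 0.230 FPKM in ARM and 26.3 ± 1.41 FPKM in normal cord, below that of Zfp207.b.

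Below these stood Zfp518b.b, at a gene whose human protein binds the histone methyltransferase G9a. It had 302, 356 and 255 CPM in ARM libraries and 290, 300 and 292 CPM in normal libraries. The ARM libraries lay on both sides of the normal ones, and the log2 fold change was 0.05. The unspliced row at Zfp507, zfp507.c, had 178, 179 and 173 CPM in ARM libraries and 185, 173 and 177 CPM in normal libraries. The groups overlapped within a narrow range, with a log2 fold change of -0.02 (95% interval -0.23 to 0.20). Zfp580.a was a short unspliced row of 486 bases and second per length, at 45.2 ± 2.65 FPKM in ARM and 45.3 ± 1.97 FPKM in normal cord.

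Zfp451, whose human protein is a SUMO ligase, had 3 tested rows. Zfp451.c had 139, 152 and 114 CPM in ARM libraries and 142, 141 and 141 CPM in normal libraries, with ARM values on both sides of the tight normal group. Zfp451.g averaged 83.2 ± 3.03 CPM in ARM and 89.8 ± 10.4 CPM in normal cord, and Zfp451.e 42.5 ± 3.68 CPM in ARM and 41.4 ± 2.40 CPM in normal cord (SD, n = 3 each). Their log2 fold changes were -0.06, -0.11 and 0.04. The remaining rows of the top 12 were Zfp770.a, Zfp446.a, Zfp553.a and Zfp324.a. Their log2 fold changes ran from -0.13 to 0.11, their groups overlapped, and none passed the test.

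**Figure D2:**
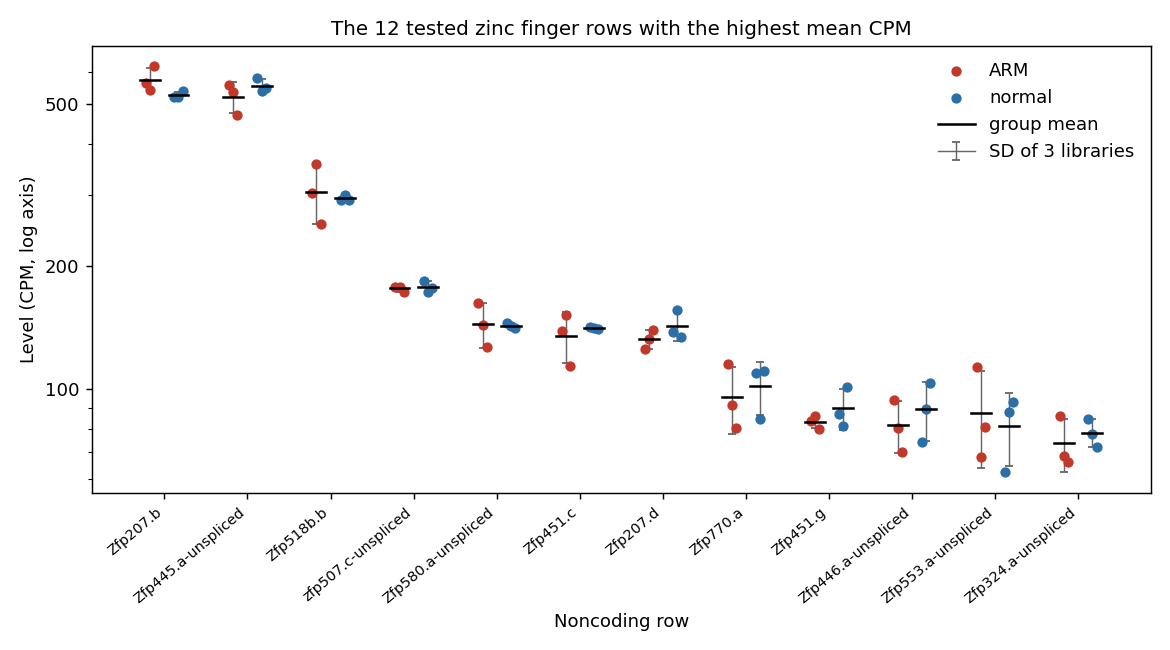
Level (CPM, log axis) of the 12 tested zinc finger rows with the highest mean, with a point per library, a bar at the group mean and whiskers for the SD of 3 libraries, ARM left of normal. Only at Zfp207.b do the ARM points (542 to 620) lie wholly above the normal points (520 to 539).

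The rows with the smallest unadjusted p are described next, 5 in each direction, and none of the 10 passed the adjusted threshold. The smallest belonged to Zfp184, a KRAB zinc finger gene. Zfp184.c lies on chromosome 17 from 44639883 to 44644956, and its counts were 37, 50 and 25 in ARM libraries and 49, 67 and 83 in normal libraries. This came to 9.92, 13.5 and 7.83 CPM in ARM cord and 16.5, 15.1 and 18.4 CPM in normal cord. Every ARM library was lower than every normal library. The means were 10.4 ± 2.85 CPM in ARM cord and 16.7 ± 1.64 CPM in normal cord (SD, n = 3 each), with a log2 fold change of -0.67 (95% interval -1.23 to -0.12). The unadjusted p in edgeR was 0.0247 and the adjusted p 0.9997. Over the alternative settings its adjusted p ran from 0.886 to 0.99999, with ARM below normal in each.

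The other Zfp184 row covers the same stretch of the chromosome, from 44608427 to 44645071, so the rows may share reads. Zfp184.b had 33.0, 68.9 and 45.1 CPM in ARM libraries and 72.3, 64.2 and 61.5 CPM in normal libraries. ARM replicate 2 stood within the normal values and the other ARM libraries below them. The log2 fold change was -0.43 (95% interval -1.06 to 0.20). With 1 library left out it ran from -0.76, without ARM replicate 2, to -0.21, without ARM replicate 1. Summed over both rows, the gene had 59.3 ± 20.3 CPM in ARM and 82.4 ± 5.29 CPM in normal cord, and the log2 fold change was -0.47. The edgeR test across all gene names gave an unadjusted p of 0.0888 and an adjusted p of 0.9999.

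The other rows with a small p and a lower estimate were Zfp365.c, Zfp426.c and Zfp655.d. Zfp365 encodes a partner of DISC1, a protein of neurite growth. Zfp365.c had 16.6, 19.1 and 14.1 CPM in ARM libraries and 25.7, 18.9 and 22.1 CPM in normal libraries. The groups overlapped by 1 ARM and 1 normal library, and the log2 fold change was -0.41 (95% interval -0.86 to 0.03). Zfp426.c averaged 17.1 ± 0.898 CPM in ARM and 21.6 ± 4.21 CPM in normal cord, with every ARM library below the normal ones. The larger row of that gene, Zfp426.a, which covers the same stretch, averaged 74.4 ± 6.10 CPM in ARM and 71.2 ± 10.96 CPM in normal cord.

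Among rows with a higher estimate the smallest p belonged to Zfp821. Zfp821.b, on chromosome 19 from 41946929 to 41958901, had 71.1, 66.0 and 68.9 CPM in ARM libraries and 54.4, 58.6 and 59.1 CPM in normal libraries. Every ARM library was higher than every normal library, and the spread within each group was small. The means were 68.7 ± 2.56 CPM in ARM and 57.3 ± 2.58 CPM in normal cord (SD, n = 3 each). The fold was 1.20, the unadjusted edgeR p was 0.0478 and the adjusted p 0.9997. The second row, Zfp821.c, overlaps it and had a log2 fold change of 0.33 (95% interval -0.30 to 0.95).

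The other 4 were Zfp655.e, Zfp346.c, Zfp597.c and Zfp672.b. Zfp346 encodes a protein that binds double-stranded RNA, and its row Zfp346.c had 12.1, 11.8 and 10.03 CPM in ARM libraries and 8.78, 7.66 and 9.51 CPM in normal libraries. The groups did not overlap, and the log2 fold change was 0.39 (95% interval -0.06 to 0.84). ZNF597 is an imprinted gene in human, and the rat row Zfp597.c had 3.49, 6.46 and 5.01 CPM in ARM libraries and 4.39, 2.93 and 3.10 CPM in normal libraries. The groups overlapped, and its estimate of 0.54 was the highest of the tested members, at one of the lower levels. Zfp672.b averaged 8.11 ± 0.520 CPM in ARM and 5.60 ± 2.56 CPM in normal cord, and 1 normal library was higher than any ARM library.

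**Figure D3:**
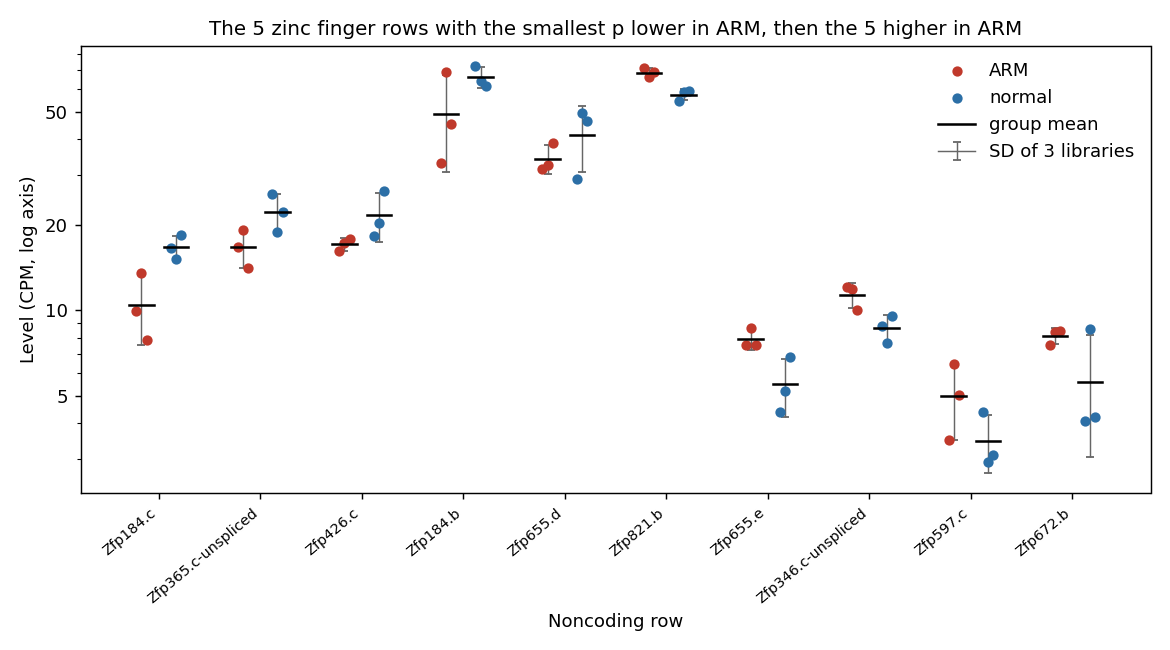
Level (CPM, log axis) of the 5 zinc finger rows with the smallest unadjusted p among those lower in ARM cord, then of the 5 among those higher, with a point per library, a bar at the mean and whiskers for the SD of 3 libraries, ARM left of normal. Groups do not overlap at Zfp184.c, Zfp426.c, Zfp821.b, Zfp655.e and Zfp346.c, and none of the 10 rows passed the adjusted threshold.

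By role, rows at genes of neural development gave no call either. This list held 10 rows at 9 genes, of which 7 were tested, 5 with a positive and 2 with a negative estimate and a median of 0.19, against 0.0036 over all tested rows. Besides zfp507.c and Zfp365.c it included Zfp536.b, at a gene that represses neuronal differentiation in mouse. Zfp536.b had 7.78, 9.96 and 6.89 CPM in ARM libraries and 6.08, 7.88 and 7.52 CPM in normal libraries, and the groups overlapped. Zfp385b.b, at a gene linked to p53-dependent cell death, averaged 10.4 ± 2.17 CPM in ARM and 8.996 ± 0.937 CPM in normal cord. Zfp804a.a, at the rat counterpart of a human psychiatric risk gene, averaged 9.58 ± 0.580 CPM in ARM and 8.66 ± 3.03 CPM in normal cord. Zfp148.d, at a GC-box binding factor, averaged 6.83 ± 1.96 CPM in ARM and 5.70 ± 3.68 CPM in normal cord. Zfp704.a, with a log2 fold change of 0.41, was also among the 5. Its estimate was -0.17 without normal replicate 3, and that of Zfp148.d was 0.30 with all libraries and -0.15 without normal replicate 2, so 1 library decided the sign of each. The untested rows of the list were at Zfp219, Zfp462 and Zfp365. The cell cycle and chromatin list comprised the 8 rows at Zfp207, Zfp451 and Zfp131, 4 positive and 4 negative, between -0.11 and 0.16. The last of these, Zfp131.c, averaged 25.5 ± 4.30 CPM in ARM and 22.7 ± 4.73 CPM in normal cord.

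Several genes had more than 1 row, and rows of a gene did not always lean the same way. Of the 80 genes 22 had several rows, and 17 had at least 2 tested rows. In 7 of these 17 the estimates shared a sign, negative at Zfp184, Zfp414, Zfp612 and Zfp187 and positive at Zfp672, Zfp692 and Zfp821. Because 54 members overlap another row of the table in position, 31 of them only rows of their own gene, such rows are not independent. Summed by gene, 0 of 62 tested zinc finger genes were called by edgeR after adjustment over 11700 gene names. Over all those names 6 were called lower and 0 higher. Of the zinc finger genes 1, Zfp821, had an unadjusted edgeR p under 0.05 (1.61%), against 3.05% of all gene names.

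Zfp655, whose protein interacts with the signalling protein Vav, had rows that pointed in opposite directions. Zfp655.d had 31.4, 32.3 and 38.9 CPM in ARM libraries and 29.0, 49.3 and 46.2 CPM in normal libraries. Zfp655.e, inside the same stretch, had 7.51, 8.62 and 7.52 CPM in ARM libraries and 4.39, 5.18 and 6.86 CPM in normal libraries. The ARM libraries of Zfp655.e all exceeded the normal ones, while those of Zfp655.d overlapped them. Their log2 fold changes were -0.28 and 0.51, that of Zfp655.b was 0.21, and the gene's sum gave -0.02 (95% interval -0.39 to 0.35). A difference between the rows was not tested. The 4 rows at Zfp40 lay between -0.04 and 0.22 and the 2 tested rows at Zfp187 at -0.07 and -0.01.

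**Figure D4:**
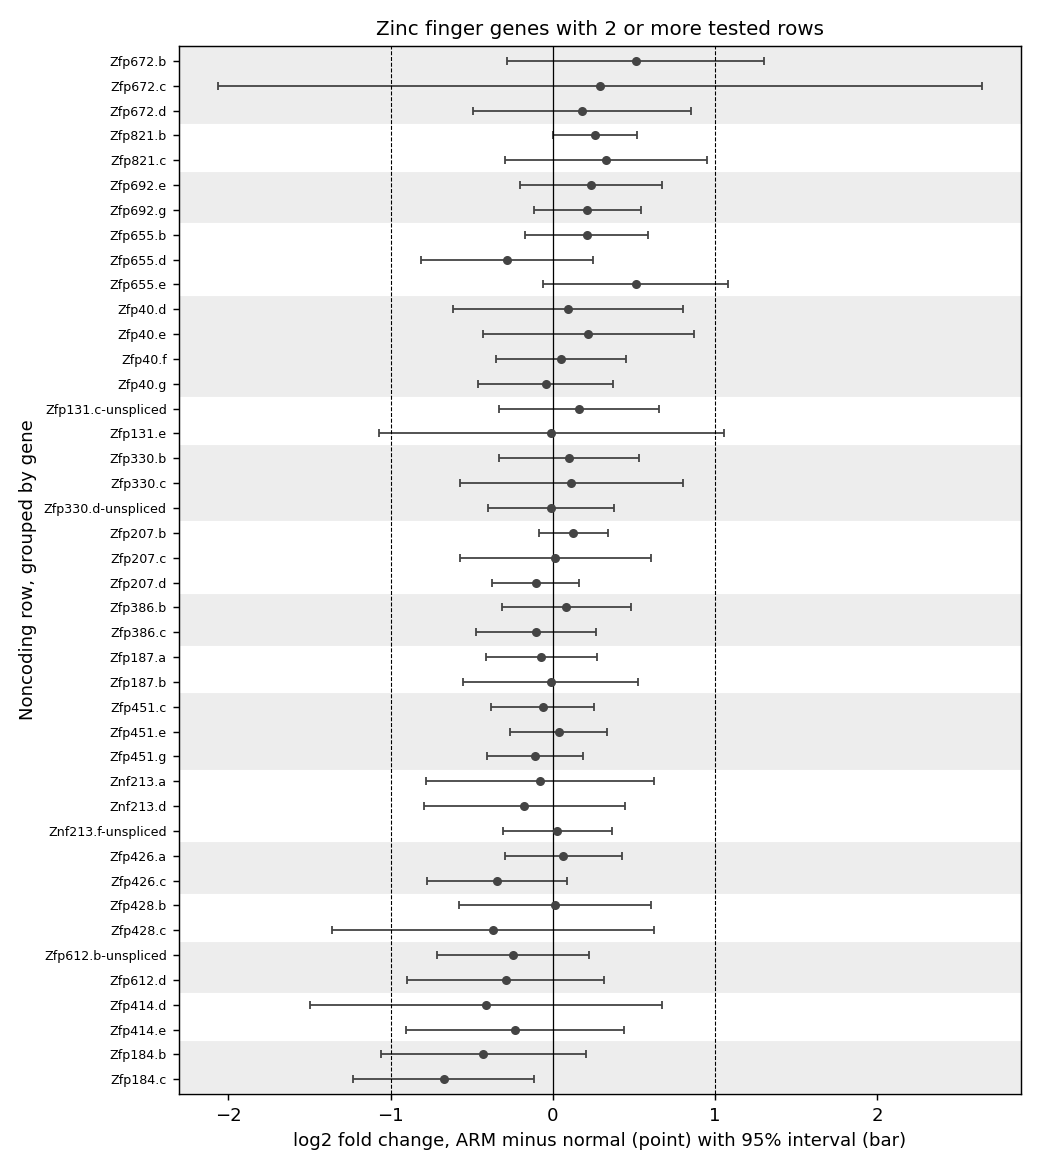
Log2 fold change (ARM minus normal) of each tested row at the genes with 2 or more tested rows, with 95% intervals from the edgeR fit as bars. In 7 of the 17 genes the rows share a sign, and the interval lies wholly on 1 side of 0 only at Zfp184.c and Zfp821.b.

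Many zinc finger genes stand in clusters in mammalian genomes, and some of the members had a zinc finger neighbour. Chromosome 1 held 26 of the rows, chromosome 10 held 15 and chromosome 17 held 10. Relative to all rows of a chromosome the highest share was on chromosome 17 (1.43%), against 0.511% over the table. Groups of different zinc finger genes with at most 500000 bases between neighbours numbered 9 and held 23 of the 80 genes, while 57 had no such neighbour among the members. The number that chance placement would give was not computed. Of these groups 7 were pairs, and the one with most genes held 6 on chromosome 1 from 198683952 to 199059254 (Zfp553, Zfp771, Zfp764, Zfp689, Zfp688 and Zfp629). Its 4 tested rows had 1 positive and 3 negative estimates. At Zfp672 and Zfp692, from 43745574 to 43760973 on chromosome 10, all 5 tested rows had a positive estimate, with a median of 0.23. The summed level there was 109, 114 and 142 CPM in ARM libraries and 110, 94.4 and 102 CPM in normal libraries. ARM replicate 3 was the highest and ARM replicate 1 lay within the normal values, so the groups overlapped.

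A few rows had almost no reads in some libraries and a clear level in others. This set was chosen after its values were seen, as rows with at most 2 counts in 1 library and at least 15 in another. It held 6 of the 95 members with at least 15 counts in a library (6.32%), against 5.87% of all such rows in the table. Zfp704.a had 238, 231 and 169 counts in ARM libraries and 195, 306 and 2 counts in normal libraries. Normal replicate 3 stood alone, and the remaining 5 libraries were between 53.0 and 68.9 CPM. The log2 fold change was 0.41 with all libraries and -0.17 without normal replicate 3, so 1 library decided its direction. Zfp672.c had 31, 10 and 21 counts in ARM libraries and 29, 0 and 24 counts in normal libraries. Znf397.a had 0, 0 and 21 counts in ARM libraries and 15, 21 and 0 counts in normal libraries. In both the low libraries did not follow the group, and 3 counts in a library, the limit that a count of 0 allows, came to 0.664 to 1.01 CPM. The other 3 such rows, Zfp187.c, Zfp384.d and Zfp219.c, were too low to test.

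**Figure D5:**
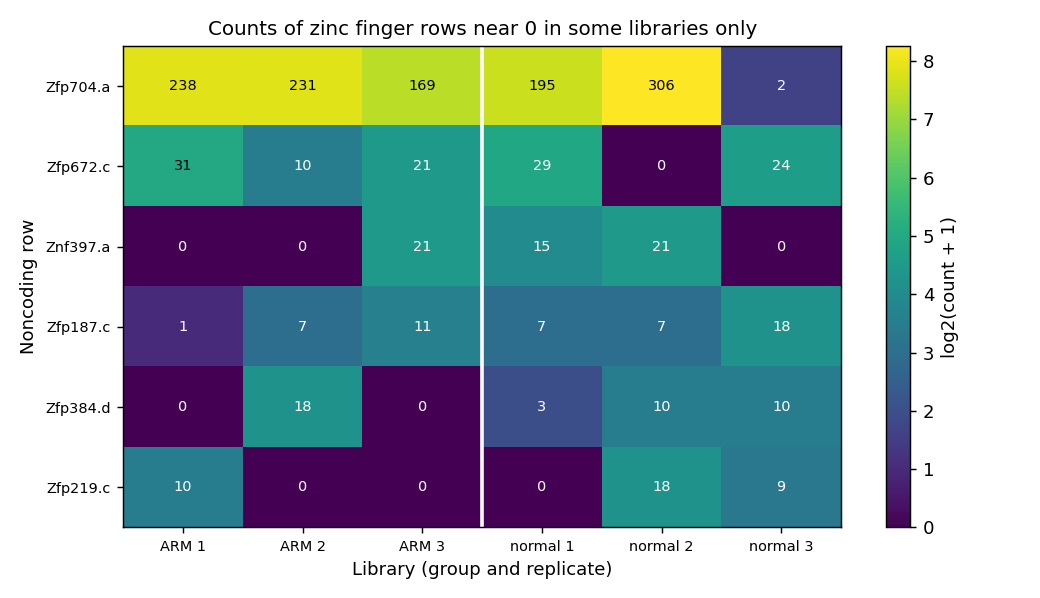
Read counts per library of the 6 zinc finger rows with at most 2 counts in 1 library and at least 15 in another, ARM libraries left of normal libraries. Each of the 6 libraries is near empty for 1 to 3 of the rows, and 3 of the rows are near empty in several libraries.

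Rows at the partners of KRAB proteins gave no call. Of 25 rows named after Trim28, Setdb1, heterochromatin proteins and related genes 21 were tested. The estimate was positive for 12 and negative for 9, with a median of 0.10, against 0.0036 over all tested rows. An unadjusted edgeR p under 0.05 was found for 2 (9.52%), against 3.0% of all tested rows. Trim28.e averaged 39.0 ± 1.75 CPM in ARM and 35.9 ± 2.31 CPM in normal cord, and Setdb1.c 19.8 ± 4.96 CPM in ARM and 15.3 ± 3.77 CPM in normal cord (SD, n = 3 each). Trim24, a relative of Trim28, had the row of this list with the smallest p. Trim24.c had 217, 206 and 159 counts in ARM libraries and 271, 403 and 361 counts in normal libraries, which averaged 54.5 ± 4.27 CPM in ARM and 87.4 ± 6.52 CPM in normal cord. The groups did not overlap, and the log2 fold change was -0.68 (95% interval -0.97 to -0.39). Its unadjusted edgeR p was 9.8e-04 and its adjusted p 0.952, and over the alternatives its adjusted p ran from 0.0738, in DESeq2, to 0.99999. The second row, Trim24.d, averaged 68.0 ± 19.4 CPM in ARM and 68.5 ± 2.19 CPM in normal cord. Mbd1.g, at a gene for a protein that binds methylated DNA, had the highest estimate of the list, in the other direction. It had 12, 38 and 22 counts in ARM libraries and 2, 12 and 13 counts in normal libraries, and per depth every ARM library was above the normal ones. The log2 fold change was 1.61 (95% interval 0.26 to 2.96), with an unadjusted edgeR p of 0.0262 and an adjusted p of 0.9997. The other tested Mbd1 rows leaned lower, with log2 fold changes of -0.03 at Mbd1.d, -0.27 at Mbd1.c and -0.08 at Mbd1.f. At Mbd1.c every ARM library was below the normal ones. Mbd1.d averaged 244 ± 3.56 CPM in ARM and 250 ± 19.0 CPM in normal cord, against 6.78 and 2.08 CPM for Mbd1.g.

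Rows of other zinc finger families were set beside the members. Of 32 rows named after families such as Zbtb, Prdm, Zic and Klf 22 were tested, 14 positive and 8 negative, with a median of 0.06 and 0 called by edgeR. In edgeR 1 had an unadjusted p under 0.05 (4.55%), against 3.0% of all tested rows. This was Myt1l.d, at a gene of neuronal identity. It averaged 30.1 ± 4.56 CPM in ARM and 42.4 ± 3.57 CPM in normal cord. The edgeR fit gave an unadjusted p of 0.0176 and an adjusted p of 0.9997. Of 66 rows that the table names zf-C2H2, after the domain and not a gene, 44 were tested, 18 positive and 26 negative, with a median of -0.01 and 0 called. They were mostly unspliced (83.3%), against 25% of the members.

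The libraries held 3299241 to 3795224 counts in ARM and 3017868 to 4549756 counts in normal cord. Rows named after markers of 8 cell types numbered 33, of which 22 were tested and 0 called by edgeR. The 12 rows found for 10 of 12 cord position and neuron genes summed to 748 to 795 CPM in ARM and 688 to 816 CPM in normal libraries. The summed ranges also overlapped for sensory ganglion (473 to 612 CPM in ARM, 499 to 549 CPM in normal libraries) and for glia (270 to 435 CPM in ARM, 239 to 419 CPM in normal libraries). They overlapped too for cartilage and meninges (41.4 to 50.2 CPM in ARM, 29.4 to 75.4 CPM in normal libraries), endothelium (32.9 to 41.3 CPM in ARM, 24.6 to 33.8 CPM in normal libraries) and microglia (2.15 to 4.85 CPM in ARM, 2.03 to 4.65 CPM in normal libraries). For muscle the row at Myog had 2, 2 and 2 counts in ARM and 0, 0 and 1 counts in normal libraries, which is too few to compare.

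Some marker rows varied widely between the libraries of a group. In the cord list Nefh.b had 140, 24 and 7 counts in ARM and 44, 9 and 144 counts in normal libraries. For blood, the row at Hbb was the one found of 3 genes, with 16, 12 and 675 counts in ARM and 12, 7 and 12 counts in normal libraries, so ARM replicate 3 was far above the rest. Of the cartilage rows Col2a1.a had 77, 53 and 1 counts in ARM and 0, 206 and 1 counts in normal libraries, and Col2a1.e had 1, 2 and 47 counts in ARM and 0, 1 and 77 counts in normal libraries. With Hbb, 3 of the 22 tested marker rows had an unadjusted edgeR p under 0.05, against 3.0% of all tested rows. Each had an adjusted p of 0.9997 in that fit. Besides Hbb these were Pecam1.a, with a log2 fold change of 0.42, and Foxp1.d of the cord list, with a log2 fold change of -1.09. The other Foxp1 row, Foxp1.c, leaned the other way, with a log2 fold change of 0.39 and overlapping groups. Its mean over the libraries was 13.4 CPM, against 5.17 CPM for Foxp1.d. The part of these marker rows in the zinc finger rows' values was not tested. ARM replicate 3 was the highest library for 19 (21.8%) and the lowest for 17 (19.5%) of the 87 tested members, against 25.4% and 22.8% of all tested rows. Without it 0 zinc finger rows were called in edgeR, 0 had an unadjusted p under 0.05, and the median log2 fold change was -0.01. Among members the median variation between libraries of a group was 17.2% of the mean, against 19.9% over all tested rows.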

How the data were processed

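The authors deposited 1 lncRNA table with, per the file headers, whole-number read counts, FPKM values and transcript length in bases, each row with its position. The tools named per the submitters' processing notes are Cufflinks 2.1.1, Cuffdiff, TopHat2 2.0.9 and CASAVA 1.8, beside the build mm10. The table has 551 rows on chromosome 20, which mouse lacks, and neither its build nor the counting tool or strand setting is stated in those sources. Coordinates are as deposited, and sequences are RefSeq's of GRCr8.

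Counts of all rows were tested in edgeR 4.0.16 under R 4.3.3 (quasi-likelihood, glmQLFit and glmQLFTest, TMM, filterByExpr, no covariate), with p-values adjusted after Benjamini and Hochberg over 13584 rows. CPM use TMM-scaled sizes of tested rows. FPKM entered no test. Intervals are the estimate plus or minus the t quantile times the standard error. The members and lists were chosen with earlier results of these data known. Named rows are members past the threshold, the 5 smallest p per direction, the 12 highest, rows with at least 20 counts in one group and at most 3 in the other (none), the top row of each role-list gene, rows of the 3 genes with most rows (Zfp40 and Zfp655 with 4, and Zfp187, one of 10 genes tied at 3), and the 3 most variable rows within a group above 5 CPM. Other rows were picked once values had been seen. The planned count of finger motifs in proteins was not made.

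The code was tested on simulated counts. Of simulated 2-fold changes 13 of 99 were called at an adjusted p under 0.05 in edgeR, and of 4-fold changes 82 of 95. Rows without a change gave 4 false calls. The simulated spread followed the trend of the fit, not each row's own. Library pairs differed beyond sampling noise (chi-square per degree of freedom at least 14.4), so none was merged. Alternatives were DESeq2 1.42.0, RLE size factors, no filter, CPM above 1 in at least 3 libraries, a replicate block, each library left out, rows summed by gene name, and rows whose every name is a zinc finger name.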

Additional observations from a re-analysis of the deposited data

How the results depend on the processing

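In each of the 13 alternatives 0 zinc finger rows were called in either direction. Rows whose every name is a zinc finger name were the same 87 in the main fit, so that alternative could not differ. Members with an unadjusted p under 0.05 numbered 0 to 4 (0 to 4.30%), against 1.62% to 5.19% of all tested rows. The median log2 fold change of tested zinc finger rows was -0.052 with no filter on low counts and ran from -0.053 to 0.0099 when 1 library was left out. Of 468 repeats for 39 named rows 446 kept the sign and 22 reversed, at 14 rows whose estimates were at most 0.41 from 0. Of the 446, 39 came from the alternative that could not differ. All but 1 reversal came from leaving out a library, where the log2 fold changes ranged as follows: Zfp148.d -0.15 to 0.76, Zfp187.a -0.20 to 0.00066, Zfp187.b -0.13 to 0.13, Zfp40.d -0.17 to 0.33, Zfp40.f -0.053 to 0.14, Zfp40.g -0.17 to 0.056, Zfp451.c -0.16 to 0.047, Zfp518b.b -0.078 to 0.17, Zfp553.a -0.13 to 0.26, Zfp580.a -0.086 to 0.10, Zfp672.c -0.34 to 1.12, Zfp704.a -0.17 to 0.87, Zfp770.a -0.25 to 0.026, zfp507.c -0.036 to 0.0072. The other was Zfp580.a with no filter (-6.4e-04). No pairing of the libraries by replicate number was seen, though correlations among so few libraries cannot exclude it. Same-numbered ARM and normal libraries had correlations of -4.7e-04, 0.029 and -0.060, and 1 of 6 libraries correlated best with its own number. With the number as a replicate block, 0 zinc finger rows were called, 2 rows of the table against 7, and the median was -0.01. DESeq2 called 18 rows of the table, and 10 to 18 were called without 1 library, none of them a zinc finger row. Depth limits the 29 untested rows, and intervals cover 3 libraries a group.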

Other observations

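Of the 29 untested members 2 had the same count in all 6 libraries, 1 each for Zfp609.b and 2 each for Zfp259andBud13.d. These rows were chosen after their values were seen. Zfp282.b and Zfp710.b, also too low for the main test, had some of the smallest unadjusted p-values once the filter on low counts was dropped. Zfp282.b had 5, 8 and 3 counts in ARM libraries and 5, 24 and 18 counts in normal libraries, and Zfp710.b had 5, 6 and 3 counts in ARM libraries and 8, 17 and 8 counts in normal libraries. Groups overlapped at Zfp282.b and did not at Zfp710.b. Neither passed edgeR's test in that fit, with an unadjusted p of 0.0400 and 0.0395 and an adjusted p of 0.9998 for both. Their log2 fold changes in that fit were -1.34 and -1.08, each beyond a 2-fold change, unlike those of the 87 rows of the main test. With the filter of CPM above 1 in at least 3 libraries they were -1.34 and -1.07.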
